A study of Mus musculus with 5 samples.

Results

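The interferon response and antigen presentation genes are 39 mouse genes listed by symbol: 9 transcription factor genes (interferon regulatory factors and Stat2), 4 genes for sensing foreign RNA, 19 genes for antiviral and other interferon-stimulated effectors, and 7 genes for loading peptides onto MHC class I. The rule that chose them is a list of symbols and uses no measured value, though it was drawn up with earlier results of these data known, and all 39 were found among the 22026 gene symbols measured. Messenger RNA levels came from RNA-seq of cloned mouse embryos of strain B6D2F1 with 4 cells, made by placing a donor nucleus in an oocyte that lacks its own. There was 1 library per group: H3.3 knockdown with H3.3 mRNA added, H3.3 knockdown with H3.2 mRNA added, H3.3 knockdown alone, luciferase, and untreated. H3.3 is the replacement form of histone H3, H3.2 is a form made during DNA replication, and the series title asks about H3.3 as a maternal factor when an oocyte reprograms a nucleus. The donor cell, the knockdown agent, the form in which luciferase was given and the number of embryos per library were not stated in any source used here. The library called H3.2 mRNA below is so named in its title and in the series design, while its treatment tag says H3.3 mRNA. Source names also split the libraries, into NT (H3.3 mRNA, knockdown and untreated) and SCNT (H3.2 mRNA and luciferase).

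Interferons are secreted signals that a cell makes when it senses viral RNA or DNA. RNA sensors such as RIG-I and MDA5 act through the adaptor MAVS on the factors IRF3 and IRF7, which switch on interferon genes. Type I interferon then acts through a complex that holds STAT2 and IRF9 on a DNA element called ISRE, and type II interferon acts through an element called GAS and through IRF1. Among the genes that respond are antiviral effectors and the machinery that cuts proteins, carries the peptides into the endoplasmic reticulum and loads them onto MHC class I with beta-2-microglobulin. Early mouse embryos are known to mount little interferon response.

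The ISRE and GAS elements can be seen in the DNA before the start of some members, and the stretches below are shown because they carry those letters in genes that the values turn on, both measured and listed at 0. Promoters came from RefSeq (build GRCm38.p6) and were matched by symbol for 34 of the 39 members. The files were made on mm9, so these positions are RefSeq's and not the files'. Over the 250 bases before each start, both strands were searched for the ISRE core, which is GAAA, any 2 bases, and GAAA, and for the GAS letters TTCNNNGAA, which read the same on both strands. The ISRE core was found for 11 of the 34 members, and 3.46% of 27025 genes with a promoter held it. The GAS letters were found for 9 of the 34, and 8.13% of all genes held them. Capitals mark the letters found, and overlapping copies run together. Read 5′ to 3′ on the gene's own strand, the ISRE core before 4 members that were above 0 in at least 1 library was:
B2m, chr2:122147538-122147567, plus strand: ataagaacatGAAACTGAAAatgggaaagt
Bst2, chr8:71537577-71537612, minus strand: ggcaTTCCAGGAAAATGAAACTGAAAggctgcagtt
Cxcl10, chr5:92349083-92349112, minus strand: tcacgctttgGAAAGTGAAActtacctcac
Stat2, chr10:128270266-128270295, plus strand: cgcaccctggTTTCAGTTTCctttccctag
In Bst2 the capitals cover GAS letters and ISRE cores that overlap. Isg15, which was above 0 only in the H3.3 mRNA and H3.2 mRNA libraries, holds overlapping ISRE cores:
Isg15, chr4:156200865-156200906, minus strand: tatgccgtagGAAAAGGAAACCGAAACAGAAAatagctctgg
The next 3 genes hold the ISRE core and were listed at 0 in all 5 libraries:
Ifit1, chr19:34640775-34640823, plus strand: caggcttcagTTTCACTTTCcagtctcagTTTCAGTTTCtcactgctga
Ifit3, chr19:34583363-34583426, plus strand: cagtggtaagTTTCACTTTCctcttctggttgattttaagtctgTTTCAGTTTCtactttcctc
Rsad2, chr12:26456553-26456582, minus strand: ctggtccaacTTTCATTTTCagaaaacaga
GAS letters stand before Irf1 and Psmb8, 2 genes with large differences between libraries:
Irf1, chr11:53769914-53769943, plus strand: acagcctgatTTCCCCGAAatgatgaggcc
Psmb8, chr17:34198088-34198117, plus strand: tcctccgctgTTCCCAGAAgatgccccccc
The ISRE core stood before 4 of the 8 genes with a promoter that were listed at 0 in all 5 libraries, and before 7 of the 26 that were above 0 somewhere. Of the 6 antigen presentation genes with a promoter, 1 held it, B2m. These matches describe the letters in this window and were not used in any comparison.

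Levels are in FPKM, fragments scaled to transcript length and library total, which allows levels to be compared between genes. A gene entered the comparisons when its mean over the 5 libraries was at least 1 FPKM, which 28 of the 39 members and 13144 genes in all did. The lowest member inside this limit was Usp18 with a mean of 1.15 FPKM, and the highest outside it was Mx1 with 0.61 FPKM. Irf5, Usp18 and Psmb9 passed through 1 library alone, with the other 4 listed at 0. A gene that enters this way is always called higher in that library than in any other. A call, higher or lower, needed 4-fold or more on log2(FPKM + 1). With 1 library per group no difference has a replicate check, no test was made, and each count of members is given beside the share of all 13144 genes called by the same rule.

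Several facts of the whole series bear on every value below. The H3.3 transcripts H3f3a and H3f3b summed to 467 FPKM in the H3.3 mRNA library, 420.1 in the H3.2 mRNA library, 664 in the knockdown, 5734 in the luciferase library and 5266 in the untreated library, so the sum was low in all 3 knockdown libraries and no higher with H3.3 mRNA than without it. The untreated library stood apart, with Pearson's r of 0.740 to 0.753 with the others across 13144 genes, against 0.799 to 0.835 among the other 4. Of 13 oocyte and embryo markers, 10 to 12 were above 0 in each library. Dppa3, Obox6 and Gdf9 were well above 0 in every library, while Cdx2 was listed at 0 in all 5. Others were at 0 in some: Nanog in the knockdown, Mos in the H3.2 mRNA and luciferase libraries, and Oosp1 in the luciferase library. None of 20 genes that every cell uses was at 0 in any library. Immune cells express many of the 39 genes, and few of their markers were seen. Ptprc, Lyz2, Itgam, Csf1r and Tyrobp were listed at 0 in all 5 libraries, and 1 or 2 of 12 immune markers were above 0 in each. Those seen were not all low: Cd68 had 148 FPKM in the knockdown and Laptm5 had 131 in the untreated library. In bulk RNA a lower level can come from fewer cells that express a gene or from less RNA per cell, and these cannot be told apart.

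Of the 39 genes, 9 were listed at 0 in all 5 libraries. Ifit1, Ifit2 and Ifit3, which bind viral RNA and block its translation, were among them, as were the antiviral enzyme genes Rsad2 and Oas1a, the kinase gene Eif2ak2 (PKR), the antiviral GTPase gene Mx2, the RNA sensor gene Ifih1 (MDA5) and the lymphoid factor gene Irf4. Mx1, the other Mx GTPase gene, was above 0 in the luciferase library alone, at 3.03 FPKM, and Irf8, a factor of myeloid cells, had 1.89 FPKM in the luciferase library and 0 elsewhere. Interferon genes themselves were near absent: of 19 in the files, Ifng alone was above 0, with 3.42 FPKM in the H3.2 mRNA library and 17.4 FPKM in the luciferase library. The depth is unknown, so no limit of detection can be put on these values.

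Other members were plainly present. Above 0 in all 5 libraries were 12 genes: Irf1, Irf3, Irf9, Stat2, Mavs, Isg20, Ifitm2, Bst2, Ifi35, Psmb10, Tapbp and B2m. The number of members above 0 was 21 in the H3.3 mRNA library, 20 in the H3.2 mRNA library, 15 in the knockdown, 26 in the luciferase library and 22 in the untreated library. As a share of the members this was 38.5% in the knockdown, beside 47.7% of all genes, and 66.7% in the luciferase library, beside 55.8%. It was 53.8% with H3.3 mRNA (51.2% of all genes), 51.3% with H3.2 mRNA (55.7%) and 56.4% in the untreated library (47.4%). Summed over the 39, the level was 2461 FPKM with H3.3 mRNA, 1562 with H3.2 mRNA, 3749 in the knockdown, 1154 in the luciferase library and 7031 in the untreated library. The luciferase library therefore listed the most members above 0 and had the lowest sum, and the untreated library had the highest sum.

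**Figure D1:**
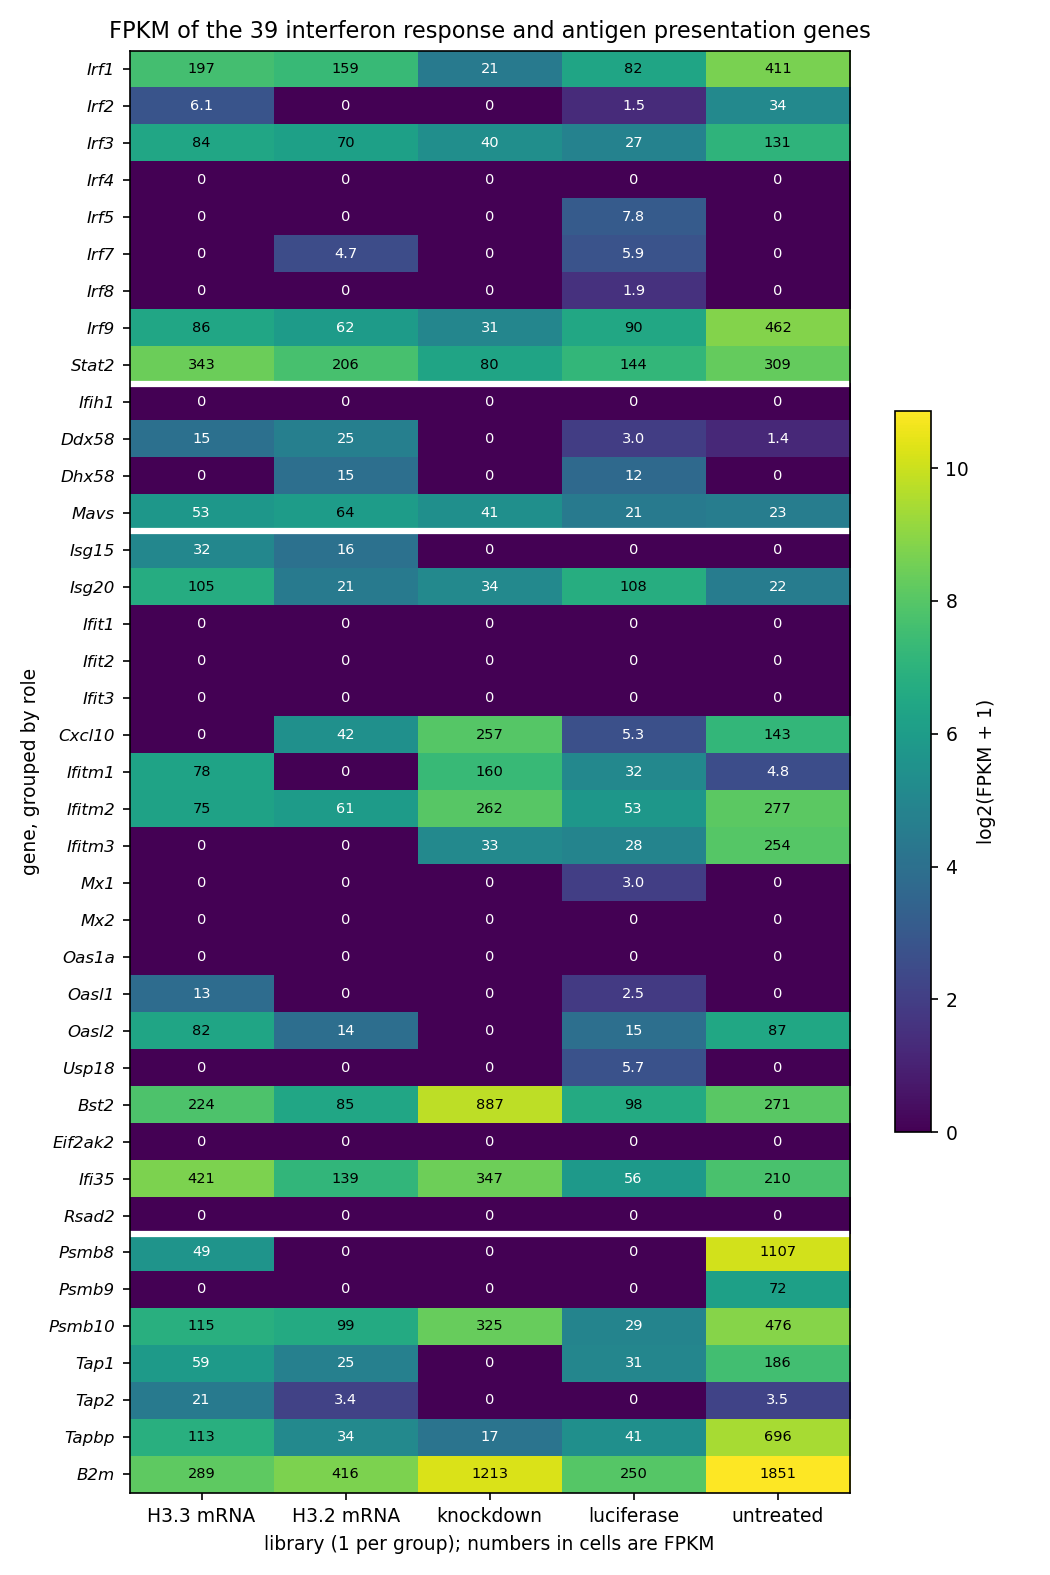
Levels of the 39 members in the 5 libraries, 1 library per column, with genes down the page grouped by role. The colour is log2(FPKM + 1) and the number in each cell is FPKM; 9 genes are at 0 in every column, and 6 of the 7 antigen presentation genes at the bottom are brightest in the untreated library.

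Among the transcription factor genes, 7 of 9 passed the limit. Irf1, which activates MHC class I and immunoproteasome genes, had 197 FPKM with H3.3 mRNA, 159 with H3.2 mRNA, 21.3 in the knockdown, 81.8 in the luciferase library and 411 in the untreated library. Irf9, the DNA-binding partner of STAT2, had 85.7 FPKM with H3.3 mRNA, 62.0 with H3.2 mRNA, 30.7 in the knockdown, 89.7 in the luciferase library and 462 in the untreated library. Stat2 had 343 FPKM with H3.3 mRNA, 206 with H3.2 mRNA, 80.0 in the knockdown, 144 in the luciferase library and 309 in the untreated library. In all 3 genes the knockdown library was the lowest of the 5, and both mRNA libraries lay above it. Irf9 shares 123 exon bases with Rnf31 on the same strand, and Irf1 shares 100 exon bases with a gene on the other strand. No source used here says whether strand was used in the counting, so reads there cannot be told apart.

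Irf3, which is present in most cells and activated by RNA sensing, had 84.1 FPKM with H3.3 mRNA, 70.3 with H3.2 mRNA, 40.2 in the knockdown, 27.2 in the luciferase library and 131 in the untreated library. Here the luciferase library was the lowest. Irf2, best known for opposing IRF1, had 6.06 FPKM with H3.3 mRNA, 0 with H3.2 mRNA and in the knockdown, 1.54 in the luciferase library and 33.6 in the untreated library. Irf7, the factor that amplifies the type I response, had 4.68 FPKM with H3.2 mRNA and 5.94 in the luciferase library, against 0 in the other 3. Irf5, an inflammatory factor, was above 0 in the luciferase library only, at 7.75 FPKM, and shares 251 exon bases with Tnpo3 on the other strand. Irf5, Irf7 and Irf8 were thus above 0 in the luciferase library and at 0 in the 3 libraries with the NT source name. Of these genes only Irf7 was also above 0 in the H3.2 mRNA library, the other with the SCNT source name. All were low, and the share of all genes with this pattern was not taken.

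Of the RNA sensing genes, Mavs, the mitochondrial adaptor, was above 0 throughout, with 53.4 FPKM with H3.3 mRNA, 63.7 with H3.2 mRNA, 41.3 in the knockdown, 20.9 in the luciferase library and 23.5 in the untreated library. Its 5 values lay within 1.56 of each other on the log2(FPKM + 1) scale and it was called in none of the 8 comparisons made. Ddx58, which encodes RIG-I, had 15.2 FPKM with H3.3 mRNA, 24.7 with H3.2 mRNA, 0 in the knockdown, 2.97 in the luciferase library and 1.37 in the untreated library. Dhx58, which encodes the regulator LGP2, had 14.8 FPKM with H3.2 mRNA and 12.3 in the luciferase library, against 0 in the other 3. Ddx58 was therefore high in the 2 libraries given histone mRNA, while Dhx58 was above 0 in the 2 libraries with the SCNT source name.

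The effectors above the limit, 11 of 19, fell into several patterns. Isg15, a ubiquitin-like protein that is attached to other proteins after interferon, had 31.7 FPKM in the H3.3 mRNA library and 15.7 in the H3.2 mRNA library, against 0 in the knockdown, luciferase and untreated libraries. That pattern, above 0 in both mRNA libraries and at 0 in the other 3, was shown by 1 of the 28 members and 0.997% of all genes. Isg15 and Ddx58 were both at least 4-fold higher in each mRNA library than in each of the other 3 libraries, which held for 0.913% of all genes. Oasl1, of the oligoadenylate synthetase-like family, was above 0 in 2 libraries, with 13.3 FPKM for H3.3 mRNA and 2.54 for luciferase. Usp18, which removes ISG15 and damps receptor signalling, was above 0 in the luciferase library alone, at 5.74 FPKM.

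Oasl2, the other synthetase-like gene, had 81.8 FPKM with H3.3 mRNA, 14.2 with H3.2 mRNA, 0 in the knockdown, 14.5 in the luciferase library and 87.2 in the untreated library. The knockdown was the only library that listed it at 0. Isg20, an RNA exonuclease, had 105 FPKM with H3.3 mRNA, 21.5 with H3.2 mRNA, 33.5 in the knockdown, 108 in the luciferase library and 22.3 in the untreated library. Ifi35, an interferon-induced leucine zipper protein, had 421 FPKM with H3.3 mRNA, 139 with H3.2 mRNA, 347 in the knockdown, 55.6 in the luciferase library and 210.1 in the untreated library. The high libraries for Isg20 (H3.3 mRNA and luciferase) were not the high ones for Ifi35 (H3.3 mRNA and knockdown).

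Several membrane proteins that hold back viruses, and the chemokine Cxcl10, were high in the knockdown. Bst2 (tetherin), which ties budding virus to the cell surface, had 224 FPKM with H3.3 mRNA, 85.2 with H3.2 mRNA, 887 in the knockdown, 97.9 in the luciferase library and 271 in the untreated library. Cxcl10, a chemokine that attracts T cells, had 0 FPKM with H3.3 mRNA, 42.5 with H3.2 mRNA, 257 in the knockdown, 5.29 in the luciferase library and 143 in the untreated library. For both, the knockdown was the highest of the 5. The IFITM proteins block fusion of viruses with cell membranes and also mark early germ cells. Ifitm1 had 77.9 FPKM with H3.3 mRNA, 0 with H3.2 mRNA, 160.2 in the knockdown, 32.3 in the luciferase library and 4.84 in the untreated library. Ifitm2 had 75.2 FPKM with H3.3 mRNA, 60.9 with H3.2 mRNA, 262 in the knockdown, 53.4 in the luciferase library and 277 in the untreated library. Ifitm3 was listed at 0 in both mRNA libraries and had 33.2 FPKM in the knockdown, 28.4 in the luciferase library and 254 in the untreated library. Only Ifitm1 was highest in the knockdown; Ifitm2 was high there and in the untreated library, and Ifitm3 was high in the untreated library. These 3 genes are similar in sequence, so reads could be shared between them in the authors' counting. Ifitm2 also shares 268 exon bases with Gm45717, a protein-coding gene on the same strand.

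Of the 7 antigen presentation genes, 6 had their highest level in the untreated library. Against it, with H3.3 mRNA 5 of the 7 were called lower (13.8% of all genes were) and 1, Tap2, higher (20.6%). In the knockdown 5 were called lower (15.6%) and in the luciferase library 7 (13.4%), with none higher in either. The immunoproteasome subunits Psmb8, Psmb9 and Psmb10 replace Psmb5, Psmb6 and Psmb7 after interferon and change the peptides that the proteasome cuts. Psmb8 had 48.8 FPKM with H3.3 mRNA, 0 in the H3.2 mRNA, knockdown and luciferase libraries, and 1107 in the untreated library. Psmb9 was listed at 0 in 4 libraries and had 71.9 FPKM in the untreated library. Psmb10 was above 0 everywhere, with 115 FPKM with H3.3 mRNA, 99.4 with H3.2 mRNA, 325 in the knockdown, 29.0 in the luciferase library and 476 in the untreated library. The 3 subunits thus shared their highest library and differed in the others.

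The constitutive counterparts had their highest levels in other libraries, the knockdown for Psmb5 and Psmb7 and the luciferase library for Psmb6. Psmb5 ranged from 1434 to 4289 FPKM, Psmb6 from 2224 to 4086 FPKM and Psmb7 from 1250.4 to 2308 FPKM over the 5 libraries. As a percentage of Psmb5, Psmb8 was 2.41% with H3.3 mRNA and 61.7% in the untreated library. As a percentage of Psmb6, Psmb9 was 2.05% in the untreated library. Psmb10 was 5.48% of Psmb7 with H3.3 mRNA, 7.95% with H3.2 mRNA, 14.1% in the knockdown, 1.94% in the luciferase library and 23% in the untreated library. In every library the 3 immunoproteasome genes were below their counterparts, and the nearest approach was Psmb8 in the untreated library. Psmb8 shares 117 exon bases with an antisense transcript, and Psmb9 shares 212 with Tap1 on the other strand.

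**Figure D2:**
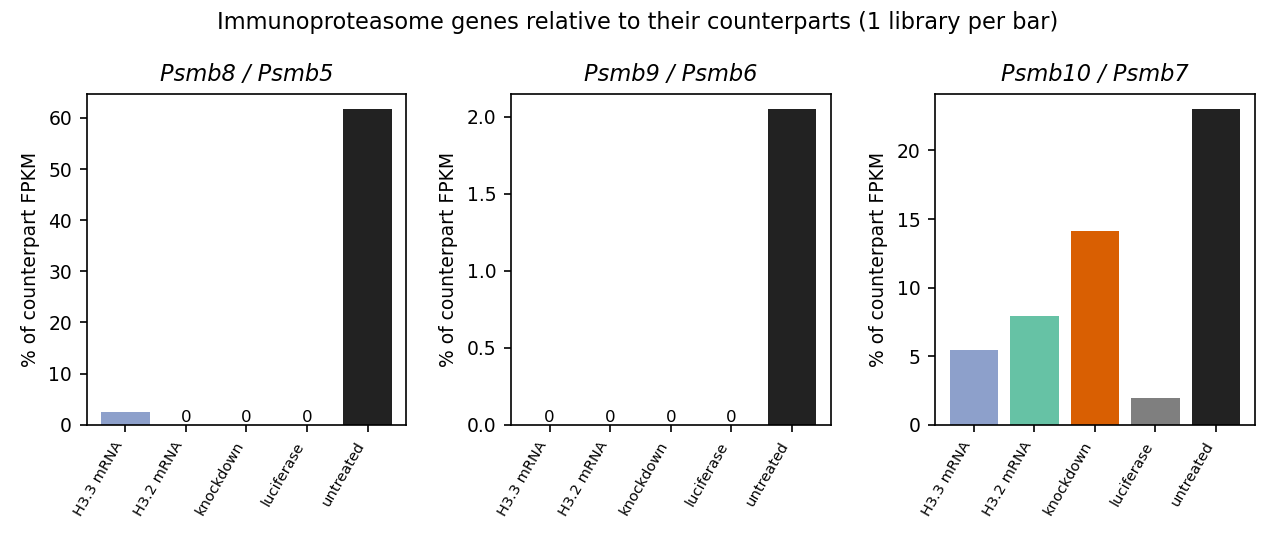
FPKM of Psmb8, Psmb9 and Psmb10 as a percentage of the FPKM of Psmb5, Psmb6 and Psmb7, 1 bar per library, with a separate linear axis from 0 for each pair. The untreated library has the tallest bar in each panel (61.7%, 2.05% and 23%), and a 0 marks a library in which the immunoproteasome gene was listed at 0.

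Tap1 and Tap2 encode the 2 chains of the transporter that carries peptides into the endoplasmic reticulum. Tap1 had 59.3 FPKM with H3.3 mRNA, 25.3 with H3.2 mRNA, 0 in the knockdown, 30.9 in the luciferase library and 186 in the untreated library. Tap2 had 21.3 FPKM with H3.3 mRNA, 3.40 with H3.2 mRNA, 0 in the knockdown and luciferase libraries and 3.48 in the untreated library. Both chains were at 0 in the knockdown and above 0 in both mRNA libraries, but only Tap1 was highest in the untreated library. Tapbp (tapasin), which bridges the transporter and MHC class I, had 113 FPKM with H3.3 mRNA, 34.0 with H3.2 mRNA, 16.8 in the knockdown, 41.3 in the luciferase library and 696 in the untreated library. B2m, the light chain of MHC class I, had 289 FPKM with H3.3 mRNA, 416 with H3.2 mRNA, 1213 in the knockdown, 250.5 in the luciferase library and 1851 in the untreated library. The knockdown was the lowest library for Tapbp and the second highest for B2m, so the loading genes did not move as 1 group. The class I heavy chains H2-K1 and H2-D1, whose reads cannot be separated with certainty because they are alike, were highest in the untreated library, with 964 and 521 FPKM there. They do not stand for all class I genes: of 16 class I and loading genes outside the 39 that passed the limit, the highest library was H3.3 mRNA for 1, the knockdown for 3, luciferase for 5 and untreated for 7. H2-Q7 had 94.6 FPKM in the luciferase library and 1.82 in the untreated library, and H2-T22 had 40.5 FPKM in the luciferase library and 0.08 in the untreated library.

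**Figure D3:**
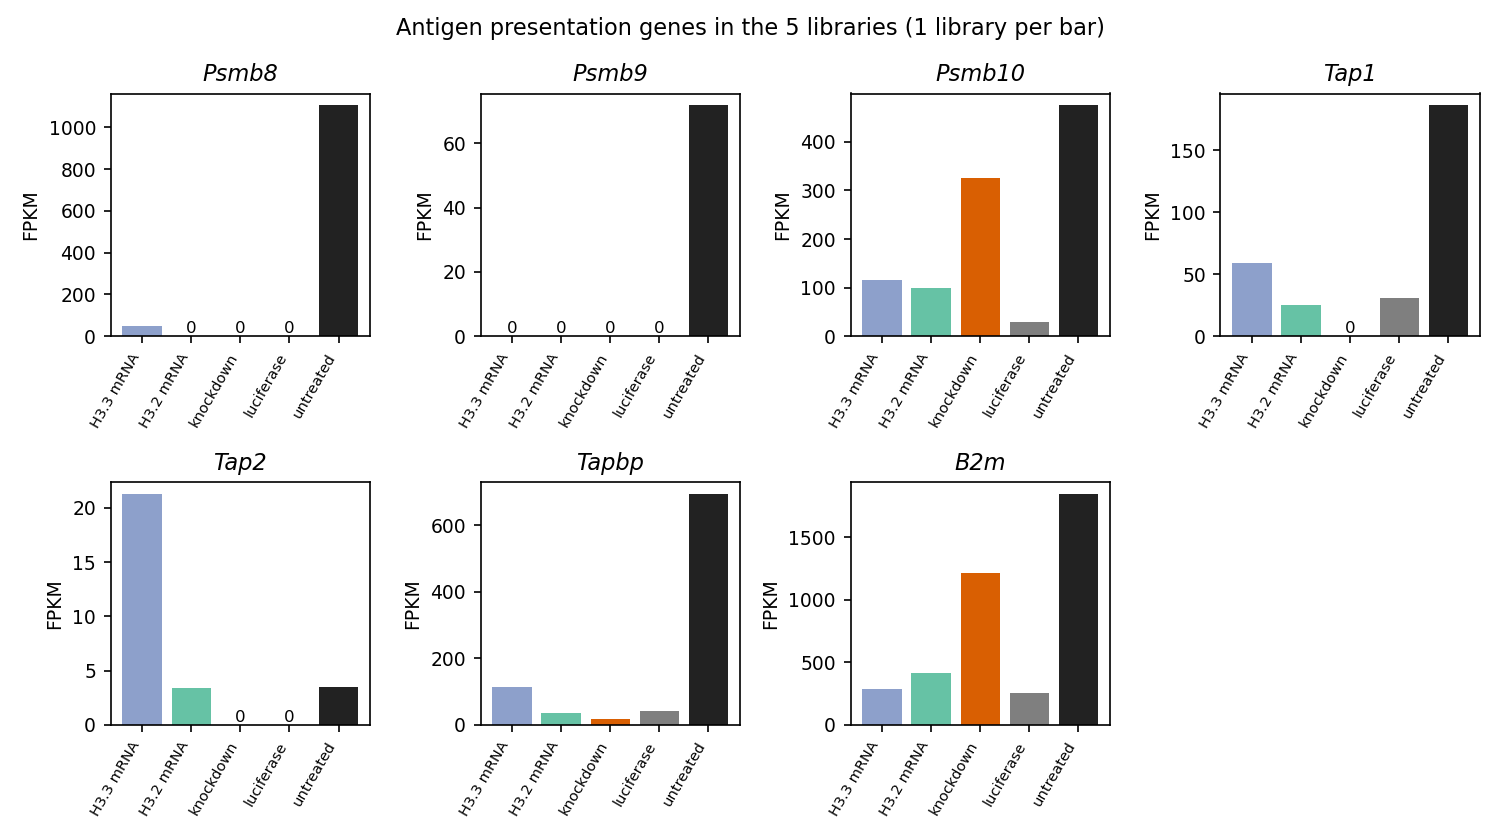
FPKM of the 7 antigen presentation genes, 1 bar per library and 1 panel per gene, each with its own linear axis from 0. The untreated library is highest in 6 panels and H3.3 mRNA in that of Tap2; a 0 marks a library in which the gene was listed at 0.

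Set against both controls at once, the knockdown called few members. The rule asked for 4-fold in the same direction against the luciferase and the untreated library, and 3 of 28 members met it, 10.7%, beside 11.3% of all genes. Ifitm1 was called higher, where 4.98% of all genes were, and Oasl2 and Tap1 were called lower, where 6.35% were. The share of members was thus near that of all genes. In Oasl2 and Tap1 the knockdown was also 4-fold or more below each of the other 4 libraries, as it was in 3.2% of all genes. The median of the 28 members, relative to the mean of the 2 controls, was -1.36 on the log2(FPKM + 1) scale, beside -0.16 for all genes. Among the 12 members above 0 in every library, none met the rule and the median was 0.14. Ifitm1 stood 2.28 above the luciferase library on that scale, and this came to 1.43 once the trend with transcript length was removed, which ended its call. Oasl2 lost its call with a pseudocount of 5 FPKM, and Tap1 kept its own under each alternative that retained it.

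Against each control alone, the members split differently. In the comparison with the untreated library, which shares its source name, 11 members were called, 39.3%, beside 32.5% of all genes. Of these, 10 were lower in the knockdown (35.7%, beside 15.6% of all genes): Irf1, Irf2, Irf9, Ifitm3, Oasl2, Psmb8, Psmb9, Tap1, Tap2 and Tapbp. Ifitm1 was higher, beside 16.8% of all genes. In the comparison with the luciferase library, whose source name differs, 13 members were called, 46.4%, beside 28.6% of all genes. Of these, 7 were higher in the knockdown (25.0%, beside 9.74%): B2m, Bst2, Cxcl10, Ifi35, Ifitm1, Ifitm2 and Psmb10. The other 6 were lower (21.4%, beside 18.9%) and were all listed at 0 in the knockdown: Dhx58, Irf5, Irf7, Oasl2, Tap1 and Usp18. These lower calls rest on listed zeros. With a pseudocount of 5 FPKM, 7 members were higher and 1 lower, beside 6.23% and 8.95% of all genes. Among the 12 members above 0 in every library, 5 were higher and none lower, beside 6.96% and 8.9% of all such genes. With the length trend removed, 4 were higher and 7 lower, beside 10.8% and 15.4%. Oocyte markers differed with the higher members, with 6 of the 11 past the limit higher in the knockdown than in the luciferase library and 1 lower, and the immune gene Cd68 had 148 FPKM in the knockdown and 18.2 in the luciferase library; their part in the result was not tested. The knockdown itself listed 13 of the 28 members at 0, 46.4%, beside 21.2% of all genes past the limit.

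**Figure D4:**
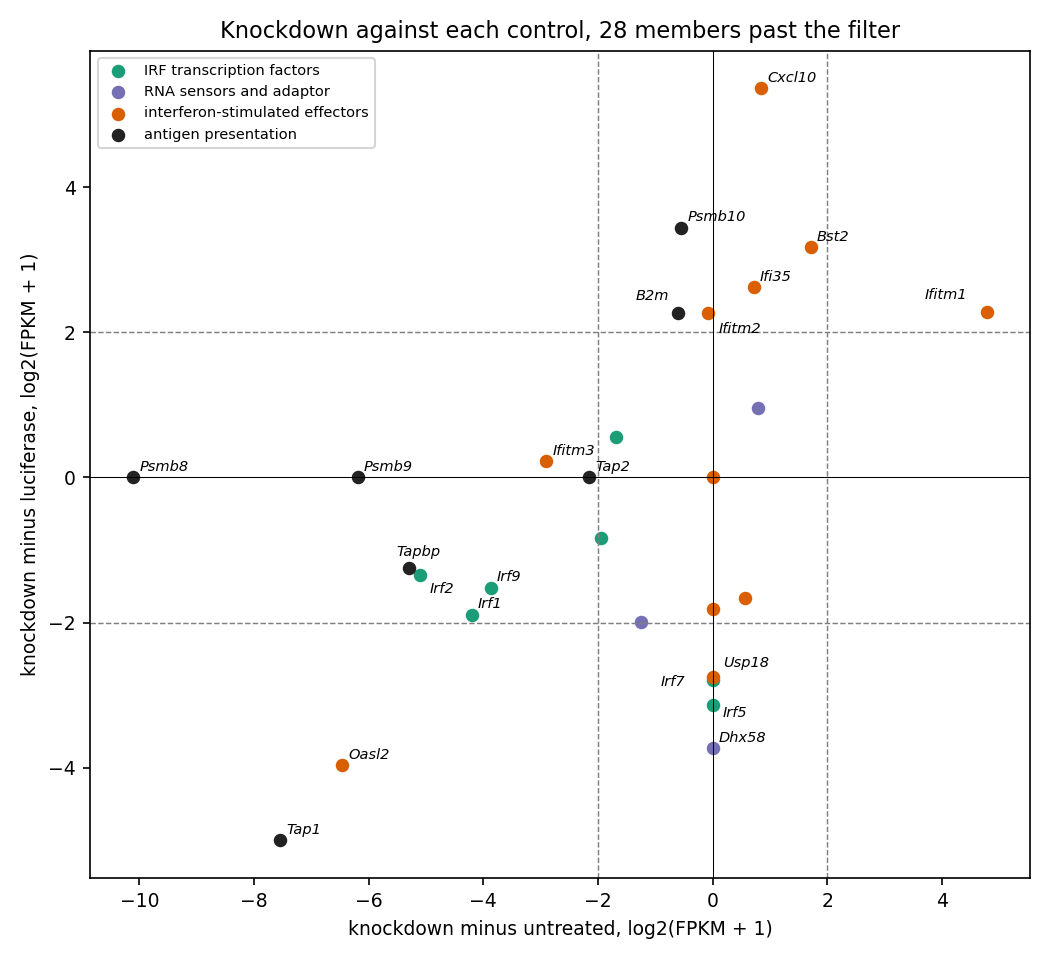
Difference of the knockdown from the untreated library (horizontal axis) and from the luciferase library (vertical axis) on the log2(FPKM + 1) scale for the 28 members past the limit, coloured by role; dashed lines mark 4-fold. Oasl2 and Tap1 lie past both lines at the lower left and Ifitm1 at the upper right, and the sizes for genes listed at 0 depend on the 1 FPKM added before the log.

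The 2 controls differed from each other in more members than the knockdown differed from either. In the luciferase library relative to the untreated library, 21 of 28 members were called, 75.0%, beside 36.9% of all genes. Lower in the luciferase library were 15 members (53.6%, beside 13.4% of all genes), and among them were all 7 antigen presentation genes together with Irf1, Irf2, Irf3, Irf9, Cxcl10, Ifitm2, Ifitm3 and Oasl2. Higher were 6 members (21.4%, beside 23.5%): Dhx58, Irf5, Irf7, Isg20, Ifitm1 and Usp18. The median over the 28 members was -2.20, beside 0.02 for all genes. Rescaling the libraries to equal upper quartiles set the median of all genes to 0.37, and it left 10 members lower and 6 higher, beside 10.8% of all genes lower. Oocyte markers differed the same way, with 7 of the 11 past the limit lower in the luciferase library and none higher (Gdf9 had 81.3 FPKM there and 1332 in the untreated library), and their part in the result was not tested. Treatment and source name cannot be told apart in this pair.

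The untreated library was the highest of the 5 for 13 of the 28 members, 46.4%, beside 26.3% of all genes. It was at least 4-fold higher than each of the other 4 for Irf2, Irf9, Ifitm3, Psmb8, Psmb9 and Tapbp, 21.4% of members, beside 4.37% of all genes. Psmb9 passed the limit through the untreated library alone, so its place in both counts was set by how it entered. No member was at least 4-fold lower in it than in the other 4, beside 7.53% of all genes. Markers of other cells also set this library apart. Laptm5, a gene of immune cells, had at most 3.14 FPKM in the other 4 libraries and 131 in the untreated library, and the cumulus gene Tnfaip6 had at most 30.8 FPKM in the other 4 and 185 in the untreated library. The summed level of the 12 immune markers was 32.4 to 149 FPKM in the other 4 libraries and 131 in the untreated library. That of 10 cumulus and granulosa markers was 7.22 to 36 FPKM in the other 4 and 189 in the untreated library, where 2 of them were above 0, and Inhba, Amh, Has2, Ptx3 and Fshr were at 0 in all 5. That of 10 fibroblast markers was 0 to 28.5 FPKM in the other 4 and 68.7 in the untreated library, where Vim alone was above 0, and Col1a1, Col3a1, Thy1 and Dcn were at 0 in all 5. Whether such cells had a part in the levels of the members was not tested.

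Each mRNA library was next set against the knockdown, a library these comparisons share with each other and with those above. With H3.3 mRNA, 14 of 28 members were called, 50.0%, beside 26.4% of all genes. Higher were 11 (39.3%, beside 16.4%): Irf1, Irf2, Stat2, Ddx58, Isg15, Oasl1, Oasl2, Psmb8, Tap1, Tap2 and Tapbp, of which 8 were listed at 0 in the knockdown. Lower were B2m, Cxcl10 and Ifitm3 (10.7%, beside 10.1%), and B2m lost its call after quantile normalization (-1.80) and with the length trend removed (-1.07). The median was 0.71, beside 0.00 for all genes. Of the 7 antigen presentation genes, 4 were higher and 1 lower.

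With H3.2 mRNA, 13 of 28 members were called relative to the knockdown, 46.4%, beside 28.6% of all genes. Higher were 8 (28.6%, beside 19.5%): Irf1, Irf7, Ddx58, Dhx58, Isg15, Oasl2, Tap1 and Tap2. Lower were Bst2, Cxcl10, Ifitm1, Ifitm2 and Ifitm3 (17.9%, beside 9.11%), the chemokine and the membrane effectors. This balance of 8 higher and 5 lower changed under alternatives. With a pseudocount of 5 FPKM it was 4 higher and 5 lower, beside 8.91% and 6.2% of all genes. After quantile normalization it was 6 higher and 5 lower, beside 14.4% and 11.7%. Among the 12 members above 0 in every library it was 1 higher and 2 lower, beside 10.1% and 6.4%. With H3.3 mRNA more members were higher than lower under each of these alternatives, as were more of all genes. With a pseudocount of 5 FPKM the members were 9 higher and 3 lower, beside 8.46% and 6.54% of all genes. After quantile normalization they were 10 and 2, beside 14.1% and 11.1%. Among the 12 members above 0 in every library they were only 3 and 1, beside 8.6% and 5.92%. Side by side, Irf1 was 3.15 (H3.3 mRNA) and 2.84 (H3.2 mRNA) above the knockdown on the log2(FPKM + 1) scale, and Cxcl10, listed at 0 with H3.3 mRNA, was 42.5 FPKM with H3.2 mRNA and 257 in the knockdown. Only the H3.3 mRNA pair lies within 1 source name, and the label conflict of the H3.2 mRNA library stands beside each of its values.

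Relative to the control with the same source name, each mRNA library also differed. With H3.3 mRNA relative to untreated, 15 members were called, 53.6%, beside 34.4% of all genes. Lower were 9, B2m, Cxcl10, Ifitm3, Irf2, Irf9, Psmb8, Psmb9, Psmb10 and Tapbp, beside 13.8% of all genes, and higher were 6, Ddx58, Ifitm1, Isg15, Isg20, Oasl1 and Tap2, beside 20.6%. Quantile normalization changed this split to 8 lower and 3 higher, beside 14.6% and 17.7% of all genes. With H3.2 mRNA relative to luciferase, 9 members were called, 32.1%, beside 20.3% of all genes. Higher were Cxcl10, Ddx58, Isg15 and Tap2, beside 10.4%, and lower were Ifitm1, Ifitm3, Irf5, Isg20 and Usp18, beside 9.84%. Ddx58, Isg15 and Tap2 were called higher in both of these pairs. The share of all genes called higher in both was not taken, so nothing is drawn from this overlap. With a pseudocount of 5 FPKM, both calls were lost for Ddx58 (1.67 for H3.3 mRNA, 1.90 for H3.2 mRNA) and for Tap2, and Isg15 kept both.

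**Figure D5:**
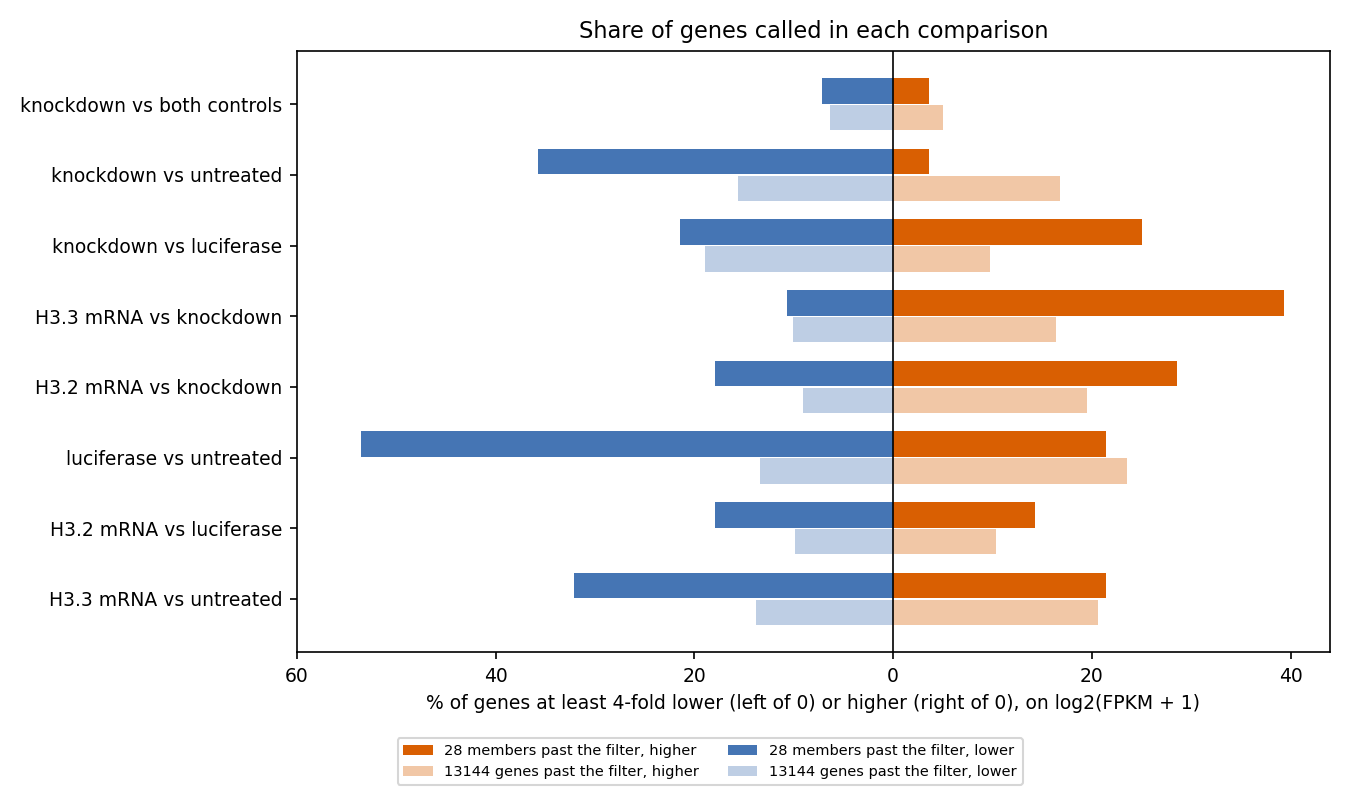
Percentage of the 28 members past the limit (dark bars) and of all 13144 genes past it (pale bars) called higher (right of 0) or lower (left of 0) at 4-fold in each comparison, named with the group on top of the difference first. The longest bar is that of members lower in the luciferase library than in the untreated library, 53.6% beside 13.4% of all genes.

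Single libraries stood alone for a few more members, a description chosen after the values were seen. The H3.3 mRNA library was at least 4-fold higher than each of the other 4 for Oasl1 and Tap2, beside 1.75% of all genes, and at least 4-fold lower for Cxcl10, beside 1.17%. The H3.2 mRNA library was at least 4-fold lower for Ifitm1, beside 0.571%, and the luciferase library at least 4-fold higher for Irf5 and Usp18, beside 3.15%. Irf5 and Usp18 passed the limit through the luciferase library alone. Their place in this count was therefore set by how they entered, and nothing is drawn from it. No member was 4-fold or more above all others in the H3.2 mRNA library (2.66% of all genes) or the knockdown (1.91%), or below all others in the luciferase library (0.875%). Oasl1, Irf5 and Usp18 did not exceed 13.3 FPKM in any library.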

How the data were processed

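RNA-seq values of 5 libraries, 1 per group, were used, and groups were taken from the labels. The authors deposited 1 FPKM value per gene symbol, made with TopHat and Cufflinks on mm9 (versions not given), per the submitters' processing notes. Per the labels' protocols, TruSeq libraries of total RNA gave single reads 51 bases long. No counts are given, so the depth is unknown and no interval or limit is printed. FPKM scales to the library total, so a few abundant transcripts shift all others, and genes alike in sequence can share reads.

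Differences were taken as log2(FPKM + 1), which understates changes of low genes, over the 13144 genes whose mean reached 1 FPKM, and called at 4-fold (2 on the log2 scale). Where a gene is listed at 0 the text gives no fold, and its call and its plotted point rest on the 1 FPKM added. With 1 library per group there was no test, and the code was checked on simulated data. The members and lists were chosen with earlier results of these data known. Each member is named; other genes are named when among the 4 of a list farthest, in the knockdown, from the mean of the controls, or as counterparts, Oas1 family, H2 class I or H3.3 genes, or markers. Markers that are named beside a result, H2-DMa, Ifnar1 and the genes in which a single library stands alone were chosen after their values were seen. Some genes that this rule names are not reported here. Overlaps came from GENCODE M21 and promoters from RefSeq (GRCm38.p6). Python 3.11.15, numpy 2.4.6, pandas 2.3.3 and matplotlib 3.10.9 were used. Alternatives were other pseudocounts, filters, scalings, a 2-fold rule, a length correction and leaving out the untreated library.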

Additional observations from a re-analysis of the deposited data

How the results depend on the processing

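Restricting the members to those above 0 in every library leaves 12 of 28 and so lowers the counts. For the 12 members above 0 in every library, each count is given with the percentage of all such genes called. The knockdown against both controls gave 0 (5.58%), against untreated 3 (22.7%, 11 with all members) and against luciferase 5 (15.9%, 13 with all). Against the knockdown, H3.3 mRNA gave 4 (14.5%, 14 with all) and H3.2 mRNA 3 (16.5%, 13 with all). Luciferase against untreated gave 8 (23.7%, 21 with all). H3.2 mRNA against luciferase gave 1 (8.23%, 9 with all), and H3.3 mRNA against untreated 5 (23.4%, 15 with all). The knockdown against both controls (3) gave 5 with a pseudocount of 0.1 (14.4% of all genes) and 9 at 2-fold (25.6%). Leaving out the untreated library gave 13, beside 29.2% of all genes. This alternative was added after the data were seen and asks less of a gene. With a pseudocount of 5, the knockdown against luciferase gave 8 (15.2% of all genes) and H3.2 mRNA against luciferase 5 (8.39%). At 2-fold these gave 20 (54.1%) and 15 (42.9%). The split for the knockdown against both controls was 2 higher and 2 lower after upper-quartile scaling, beside 5.23% and 5.84%. The median over members for that comparison (-1.36) was -2.47 with a pseudocount of 0.1, -0.55 with 5, -0.56 with no filter and 0.14, the other sign, over genes above 0 everywhere. With no filter the median was 0.00 for the knockdown against untreated, H3.3 mRNA against the knockdown and luciferase against untreated. With a mean of at least 5 FPKM it was -1.46, 1.25 and, for H3.3 mRNA against untreated, -0.85, and over genes above 0 everywhere it was 0.75 for the knockdown against luciferase, 0.62 for H3.2 mRNA against luciferase and -0.85 for H3.3 mRNA against untreated. Where the genes counted or the threshold differ, that is the construction of the alternative; for the rest the cause was not tested.

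For single members, 99 calls were recomputed, giving 909 values: 851 kept the call, 58 lost it and none reversed. Irf1, Irf3, Irf9, Ifitm2 and Tap2 lost their calls for luciferase against untreated after upper-quartile scaling, and B2m and Ifitm2 lost theirs for the knockdown against luciferase with the length trend removed. No replicate could be left out with 1 library per group. No paired analysis was possible because the labels give no replicate numbers and each group has 1 library. The unknown depth limits every value near 0.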

Other observations

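Genes of the same pathways outside the 39 add some detail. Among interferon receptor genes, Ifngr1, a chain of the type II receptor, was called lower in the knockdown against both controls. Ifngr1 had 13.5 FPKM with H3.3 mRNA, 85.9 with H3.2 mRNA, 0 in the knockdown, 74.6 in the luciferase library and 142 in the untreated library. Its partner chain Ifngr2 had 49.8 FPKM with H3.3 mRNA, 86.9 with H3.2 mRNA, 16.7 in the knockdown, 49.3 in the luciferase library and 198 in the untreated library, also lowest in the knockdown. Ifnar2, a chain of the type I receptor, had 14.4 FPKM with H3.3 mRNA, 52.2 with H3.2 mRNA, 72.1 in the knockdown, 21.7 in the luciferase library and 0 in the untreated library. The other type I chain, Ifnar1, named here after its values were seen, had 12.9 FPKM with H3.3 mRNA, 38.1 with H3.2 mRNA, 12.0 in the knockdown, 29.1 in the luciferase library and 43.4 in the untreated library, so Ifnar2 alone of these 4 chains was higher in the knockdown than in the controls. Tbk1, the kinase that activates IRF3, was the 1 gene called against both controls among 15 other nucleic acid sensing genes, beside 11.3% of all genes, with 28 FPKM with H3.3 mRNA, 41.6 with H3.2 mRNA, 7.84 in the knockdown, 42.6 in the luciferase library and 142 in the untreated library.

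MHC class II genes serve professional antigen-presenting cells. Of 8 past the limit, 5 were higher in the knockdown and 6 in the luciferase library, each relative to untreated, beside 16.8% and 23.5% of all genes. The untreated library listed only 2 of the 11 class II genes above 0. Most of these calls therefore rest on a listed 0, and few genes could have been called lower. Relative to luciferase, 2 were higher in the knockdown and 2 lower, beside 9.74% and 18.9% of all genes, with a median of 0.11. Summed over 11 genes, class II was 168 FPKM with H3.3 mRNA, 234 with H3.2 mRNA, 559 in the knockdown, 289 in the luciferase library and 42.4 in the untreated library. H2-DMa, which helps load class II, had 87.5 FPKM with H3.3 mRNA, 102 with H3.2 mRNA, 364 in the knockdown, 83.2 in the luciferase library and 31.7 in the untreated library. The defining marker of white blood cells, Ptprc, was at 0 in all 5 libraries. Another immune gene, Cd68, was not. It had 78.9 FPKM with H3.3 mRNA, 98.1 with H3.2 mRNA, 148 in the knockdown, 18.2 in the luciferase library and 0 in the untreated library. Its highest and lowest libraries were those of the class II sum, while the luciferase library was second lowest for Cd68 and second highest for class II. Whether immune cells had a part in the class II levels was not tested. In the Oas family, of which Oas1d is known for its expression in mouse oocytes, Oas1d had 110.1 FPKM with H3.3 mRNA, 96.4 with H3.2 mRNA, 106 in the knockdown, 6.55 in the luciferase library and 571 in the untreated library. Oas1c, Oas1d and Oas1e were above 0 in every library while the interferon-induced Oas1a was listed at 0 in all, and 5 of the 6 family genes past the limit were lower in the luciferase library than in the untreated library, beside 13.4% of all genes. Members of this family are alike in sequence, so their reads may be shared.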
